A study of Mus musculus with 72 samples.

Results

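In the mouse brain, 10188 gene promoters lay in open chromatin of microglia, neurons and oligodendrocytes alike. Each of them was a microglial peak that the deposited table annotates as a promoter and whose centre was at most 200 bp from the centre of a neuronal peak and of an oligodendrocyte peak on the same chromosome. These shared promoters made up 11.1% of the 91770 peaks of the microglial table and 62.7% of its 16248 promoter peaks. The other 6060 microglial promoter peaks lacked at least 1 of the counterparts, and 9631 matched peaks lay outside promoters. The shared promoters belonged to 9056 genes, and 9730 of them were assigned to protein-coding genes. The windows of 2194 overlapped that of another shared promoter, so those windows counted some tags in common. Just inside the distance limit, 159 promoters more than 180 bp from a counterpart had a median WT microglial signal of 30.2, and just outside it, at up to 220 bp, 146 promoters had a median of 44.3.

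Chromatin immunoprecipitation followed by sequencing (ChIP-seq) was carried out on nuclei of C57BL/6 mice, either wild-type (WT) or lacking Sgsh (SgshKO). Sgsh encodes the lysosomal sulfamidase that degrades heparan sulfate, and its loss is the defect of mucopolysaccharidosis type IIIA. Microglial nuclei were those positive for PU.1, neuronal nuclei those positive for NeuN and oligodendrocyte nuclei those positive for Olig2, each negative for the other 2 proteins. Histone H3 acetylated at lysine 27 (H3K27ac) was profiled in all 3 cell types at 4 and 8 months of age, with 2 replicates for each genotype and age, so 8 libraries per cell type. Binding of MITF, TFEB and TFE3 was profiled in both genotypes, in oligodendrocytes and microglia, with no age in the labels, and their replicates were merged in the deposited tables into 1 pool per factor and genotype.

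H3K27ac is deposited by the acetyltransferases p300 and CBP on nucleosomes that flank active promoters and enhancers. Promoters active in most cell types usually lie in CpG islands and serve housekeeping genes such as those of the ribosome, the respiratory chain and the proteasome. MITF, TFEB and TFE3 are basic helix-loop-helix leucine zipper proteins of the MiT/TFE family. They bind the E-box CACGTG, often within the longer CLEAR element of lysosomal gene promoters, and they are held in the cytoplasm by mTORC1 signalling at the lysosome through the Rag GTPases, folliculin (Flcn) and its partners Fnip1 and Fnip2.

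A RefSeq promoter sequence of 250 bases before to 50 bases after a transcription start (assembly GRCm38.p6) was matched to 8423 shared promoters (82.7%), taking the nearest start within 1000 bp of the peak centre. This distance was chosen after a start inside the window was found for 74.8%, under the 80% minimum. The matched promoters had a median GC content of 63.0% against 52.7% over all 32851 promoter sequences, and 84.8% against 35.8% had a ratio of observed to expected CpG above 0.6. Of the motifs searched on both strands, the GC box GGGCGG was in 73.7% of the matched promoters and in 35.7% of all promoters, the ETS motif CCGGAAGT in 9.56% and 3.89%, the NRF1 palindrome in 2.60% and 0.971%, and the cyclic AMP response element TGACGTCA in 3.83% and 1.79%. The TATA box letters TATAAA went the other way, with 5.34% against 13.6%. The E-box CACGTG was in 11.3% of the matched promoters and in 7.15% of all promoters, its extended form TCACGTGA in 2.35% and 0.974%, and the CLEAR element, which contains both, in 0.867% and 0.326%. A second RefSeq start on the opposite strand lay within the same region for 22.05% of the matched promoters.

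The E-boxes of 8 genes of the lysosome, of lysosomal nutrient sensing and of glycolysis are shown because the H3K27ac and factor results below turn on these promoters. Each is 30 bases of the GRCm38 (mm10) assembly from RefSeq, read 5′ to 3′ on the gene's strand, with the letters CACGTG in capitals. A match describes the sequence and is not a measured site.
Sgsh chr11:119355522-119355551 minus strand: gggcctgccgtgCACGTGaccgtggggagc
Naglu chr11:101070009-101070038 plus strand: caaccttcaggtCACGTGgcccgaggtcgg
Ctsd chr7:142387908-142387937 minus strand: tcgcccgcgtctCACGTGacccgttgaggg
Gaa chr11:119267811-119267840 plus strand: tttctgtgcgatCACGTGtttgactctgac
Mcoln1 chr8:3500436-3500465 plus strand: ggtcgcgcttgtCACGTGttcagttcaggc
Mcoln1 chr8:3500462-3500491 plus strand: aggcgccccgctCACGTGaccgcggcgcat
Rragc chr4:123917309-123917338 plus strand: ggtgattccgggCACGTGatagtaccactt
Fnip1 chr11:54438092-54438121 plus strand: tcagtttgctgcCACGTGatacggctcgtc
Ldha chr7:46845647-46845676 plus strand: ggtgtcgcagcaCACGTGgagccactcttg
Ldha chr7:46845744-46845773 plus strand: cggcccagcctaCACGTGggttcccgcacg
Sgsh, Naglu and Gaa encode lysosomal hydrolases, Ctsd encodes the protease cathepsin D, and Mcoln1 encodes the lysosomal calcium channel TRPML1. Rragc encodes a Rag GTPase, and Ldha encodes a subunit of lactate dehydrogenase. The Ctsd match and the later Mcoln1 match read TCACGTGA, the extended form, while the other 8 have another base on at least 1 side.

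H3K27ac values are tags per 10M tags of the library in a window of 800 bp. They are scaled between libraries by the TMM method, either within a cell type or over all 24 libraries. The summed marker signals, the medians of input and ChIP libraries and the medians at the distance limit were not TMM-scaled. Values of neurons and oligodendrocytes come from each promoter's own matched window. Libraries held 12000879 to 15778229 tags in microglia, 6059671 to 35485716 in neurons and 21178752 to 34178145 in oligodendrocytes, and windows of the shared promoters took 2.54% to 6.83% of the tags. In neurons the WT 4-month libraries held 7970059 and 6059671 tags and the SgshKO ones 18798451 and 16273384. The 8-month neuronal libraries held 29935943 to 35485716. In neurons depth therefore cannot be told apart from genotype at 4 months or from age. In the 12 input libraries, the median shared promoter had at most 4.98 tags per 10M, against 16.1 to 49.8 in the ChIP libraries. Microglial promoter markers were found as promoter peaks for 9 of 10 genes in microglia and 1 of 10 in neurons and in oligodendrocytes, neuronal markers for 9 of 10 in neurons, 2 of 10 in microglia and 5 of 10 in oligodendrocytes, and oligodendrocyte markers for 10 of 10 in oligodendrocytes, 5 of 10 in microglia and 4 of 10 in neurons. Oligodendrocyte precursor markers had promoter peaks for 3 of 3 genes in oligodendrocytes, with a summed signal of 98.7 to 299.96, for 1 of 3 in microglia and none in neurons. Astrocyte markers had promoter peaks for 2 of 5 genes in microglia and none in the other sorts. In each sort the summed signal of its own markers was above that of any other marker list, with 1768 to 2948 in microglia, 1194 to 1420.05 in neurons and 1253 to 3409 in oligodendrocytes, against at most 279.5, 119 and 299.96 for another list. Nothing in the labels says that replicates were separate animals, so p-values measure the spread between these libraries. The 8-month ChIP libraries of neurons and oligodendrocytes were deposited in steps of 0.5 tags and the 4-month ones in whole tags, so age and processing cannot be told apart in those cell types.

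Presence of a peak in each cell type did not mean equal acetylation. In WT, the median shared promoter had 33.3 tags per 10M in microglia, 37.5 in neurons and 31.95 in oligodendrocytes, and its range from the 10th to the 90th percentile was 4.20 to 119.9, 7.21 to 109 and 6.68 to 117. Some windows were almost empty: the filter on few tags left out 941 shared promoters in microglia, 274 in neurons and 166 in oligodendrocytes. Between cell types the WT means differed at least 2-fold for 6577 of the 10159 promoters tested together (64.7%), at least 4-fold for 3231 (31.8%) and at least 8-fold for 1663 (16.4%). The median absolute log2 difference was 0.85 between microglia and neurons, 0.78 between microglia and oligodendrocytes and 0.80 between neurons and oligodendrocytes. Between replicates of 1 WT group it was 0.26 to 0.43. Over the 10188 promoters, which share sequence composition and library scaling, log2 levels of microglia and neurons had a Pearson correlation of 0.42, those of microglia and oligodendrocytes 0.54 and those of neurons and oligodendrocytes 0.51, while WT replicates reached 0.85 to 0.95.

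The 4 WT libraries of each cell type, with both ages together, were compared with limma, with Benjamini-Hochberg adjustment over all 19375 matched peaks tested and a call at an adjusted p under 0.05. Between microglia and neurons 6315 of 10159 shared promoters were called (62.2%, against 61.6% of all matched peaks), 3093 higher (against 29%) and 3222 lower (against 32.6%) in microglia. Between microglia and oligodendrocytes 5789 were called (57.0% against 56.9%), 2925 higher (against 26.3%) and 2864 lower (against 30.6%) in microglia, and between oligodendrocytes and neurons 5994 (59.0% against 59.4%), 2840 higher and 3154 lower in oligodendrocytes (each against 29.7%). The share called was therefore near that of matched peaks outside promoters, which was 61.0%, 56.7% and 59.9%. The 3 comparisons share libraries. No pair differed for 1706 promoters (16.8%), and all 3 pairs did for 2408 (23.7%). Neurons were above the other 2 cell types for 1803 promoters (17.7%), microglia for 1720 (16.9%) and oligodendrocytes for 1328 (13.1%). Scaling to library totals shifts the median log2 difference of the shared promoters by -0.15 for microglia against neurons, 0.23 for microglia against oligodendrocytes and -0.38 for oligodendrocytes against neurons, and the higher and lower counts become 2471 and 3460, 3470 and 2165, and 1703 and 4189.

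The 5 promoters with the smallest range over the 24 libraries belonged to 4 genes. Ddx39b, an RNA helicase of splicing and mRNA export (chr17:35241775-35242575), had 132, 112, 124 and 134 tags per 10M in the 4 WT libraries of microglia, listed as both 4-month and then both 8-month replicates. It had 117, 124, 114 and 138 in neurons and 127, 137, 128 and 125 in oligodendrocytes. These 3 groups overlapped. Eif4enif1, which encodes the translational repressor 4E-T, had 2 overlapping windows among these 5, and the first gave 205, 232, 213 and 194 in microglia, 173, 184, 197 and 192 in neurons and 170.4, 171, 197 and 209 in oligodendrocytes. Srek1ip1, a splicing regulator, had 154, 145, 149 and 148, 118, 130.1, 132 and 158 and 163, 134, 149 and 156 in the same order of cell types. These levels again overlapped between cell types, which the choice by smallest range favoured. Ino80, the ATPase of a chromatin remodelling complex, had 179, 172, 181 and 189 in microglia, 202, 188, 221 and 211 in neurons and 165, 152, 201 and 169.9 in oligodendrocytes, and its oligodendrocyte level was slightly lower than the neuronal one at -0.26 (log2, SE 0.11, adjusted p = 0.0452). Among reference genes, the Actb promoter was high everywhere, with 404, 306, 311 and 332 in microglia, 285, 235, 251 and 312 in neurons and 310.1, 347, 404 and 352 in oligodendrocytes.

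At the other end were promoters that held a peak in every cell type but carried acetylation in only some of them. Zc3h12a, which encodes the RNase Regnase-1 that degrades inflammatory mRNAs (chr4:125127493-125128293), had 151, 157, 219.9 and 191 tags per 10M in microglia, 0, 1.29, 0.876 and 0.567 in neurons and 14.5, 14.96, 18.1 and 16.5 in oligodendrocytes. Its microglial level was above the neuronal one by 6.79 (log2, SE 0.44, adjusted p = 5.5e-15). Nek7, a kinase of the NLRP3 inflammasome, and Mfng, a glycosyltransferase of Notch receptors, followed with log2 differences of 6.60 and 6.51 against neurons. Il6ra, the interleukin-6 receptor (chr3:89912814-89913614), had 272, 314, 291 and 279 in microglia and 0, 4.53, 0.653 and 0.640 in oligodendrocytes, a difference of 7.20 (log2, SE 0.41, adjusted p = 1.4e-16). Rgs10, a regulator of G-protein signalling, had 199, 185, 183 and 173 in microglia, 20.2, 28.3, 5.99 and 12.8 in neurons and 0 in all 4 oligodendrocyte libraries, so no fold is given. Rpl10a, a ribosomal protein gene, had 350.5, 407, 276 and 358 in microglia, 61.7, 51.5, 64.3 and 62.4 in neurons and 3.27, 5.44, 0 and 0.960 in oligodendrocytes.

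Neuronal acetylation stood out at Chrd, which encodes the BMP antagonist chordin (chr16:20732719-20733519), with 212, 187, 211 and 223 in neurons, 0, 0, 1.76 and 1.47 in microglia and 2.80, 4.53, 3.59 and 5.44 in oligodendrocytes. Microglia were below neurons there by -7.01 (log2, SE 0.35, adjusted p = 7.91e-18). Lingo1, a membrane protein of neurons with 2 windows in the set, was lower in microglia by -6.86 in the first. Mtus2 had 151, 180.4, 198 and 211 in neurons and 0, 0.453, 0.816 and 0.800 in oligodendrocytes, and 2010300C02Rik and the long non-coding RNA gene Snhg11 were lower in oligodendrocytes than in neurons by -7.07 and -6.70. In oligodendrocytes, Tmem151a (chr19:5085187-5085987) had 490.3, 574, 576 and 589, against 1.60, 1.17, 0.586 and 2.20 in microglia and 161, 155, 199 and 179.6 in neurons, and the difference of microglia from oligodendrocytes was -7.91 (log2, SE 0.20, adjusted p = 4.53e-25). Kif21a, a kinesin, and Nfe2l3, a transcription factor of the CNC family, were lower in microglia than in oligodendrocytes by -7.74 and -7.70. Olig1, a transcription factor that defines the oligodendrocyte lineage, had 130.3, 156, 131 and 148 in oligodendrocytes, 0, 2.33, 2.93 and 0.734 in microglia and 0, 0, 0 and 1.13 in neurons. Plekhh1 and Myh14, a non-muscle myosin, were also higher in oligodendrocytes than in neurons, by 6.85 and 6.55. A marker gene of 1 cell type can therefore be a member of the set while its acetylation is at or near 0 elsewhere, and in sorted bulk nuclei fewer cells of a type and less signal per cell cannot be told apart.

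**Figure D1:**
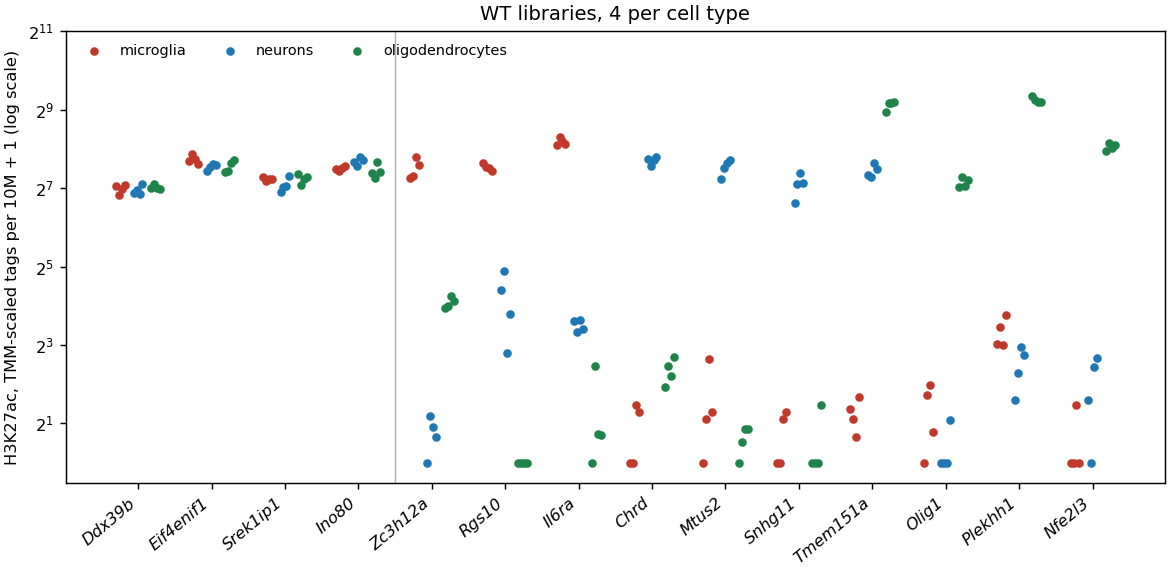
H3K27ac at 14 shared promoters in WT. The vertical axis is tags per 10M + 1 on a log2 scale, scaled over the 24 libraries, each point is 1 of the 4 WT libraries of microglia, neurons or oligodendrocytes, and promoters left of the line are the 4 with the smallest range. The points of Ddx39b, Eif4enif1, Srek1ip1 and Ino80 lie together in all cell types, while at Chrd, Tmem151a, Olig1 and Zc3h12a 1 cell type lies far above at least 1 of the others.

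Genes of 1 pathway differed between cell types in the same direction in several lists. The counts of each list below stand beside those over all 9029 genes of shared promoters. There, 2723 were higher and 2849 lower in microglia than in neurons, and 2597 higher and 2492 lower in microglia than in oligodendrocytes. Between oligodendrocytes and neurons, 2466 were higher and 2804 lower in oligodendrocytes. Cholesterol synthesis promoters were low in microglia: of the 24 genes with a shared promoter, 1 was higher and 19 were lower in microglia than in neurons, and 3 were higher and 18 lower in microglia than in oligodendrocytes. The medians of the log2 difference were -2.09 and -1.90, or -2.25 and -1.66 with scaling to library totals, against -0.02 and 0.01 over the 9029 genes of shared promoters. Hmgcs1, the synthase at the start of the mevalonate pathway (chr13:119689781-119690581), had 12.8, 7.57, 15.8 and 15.4 tags per 10M in microglia, 67.8, 63.1, 94.2 and 83.6 in neurons and 65.4, 85.7, 56.1 and 72.1 in oligodendrocytes. Its microglial level was the lowest, by -2.52 (SE 0.23) and -2.38 (SE 0.23), without overlap. Srebf2, the transcription factor that drives these genes, had 12.8, 20.98, 29.9 and 28.6 in microglia, 139.6, 122, 132 and 193 in neurons and 149.9, 163, 226 and 232 in oligodendrocytes. The exception was Srebf1, which encodes the related factor of fatty acid synthesis, with 78.4, 43.1, 70.4 and 66.05 in microglia and 4.05, 5.15, 15.9 and 7.37 in neurons, higher in microglia by 2.97 (log2, SE 0.29, adjusted p = 1.13e-10).

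Lysosomal promoters went the other way. Of 46 genes of lysosomal enzymes and membrane proteins, 26 were higher and 6 lower in microglia than in neurons, and 24 were higher and 5 lower than in oligodendrocytes, with medians of 0.78 and 0.63. Scaling to library totals gave medians of 0.63 and 0.87. Microglia were above both other cell types at 18 of these genes, and neurons were below both at 14. Ctsd (chr7:142387467-142388267) had 213, 199, 174 and 179.8 in microglia, 42.5, 51.5, 50.2 and 51.03 in neurons and 41.6, 26.3, 19.8 and 26.7 in oligodendrocytes, and microglia were higher by 1.95 and 2.74. Microglia were also above neurons at Gusb by 3.56, at Grn by 2.85 and at Lgmn by 2.98, which encode beta-glucuronidase, progranulin and legumain.

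Of the enzymes that degrade heparan sulfate beside sulfamidase, Naglu had 105, 109.5, 110.2 and 114 in microglia, 21.2, 21.9, 28.04 and 24.1 in neurons and 38.3, 17.2, 57.5 and 38.9 in oligodendrocytes, and was higher in microglia by 2.16 (SE 0.21) and 1.62 (SE 0.21). Sgsh itself had another pattern: its neuronal level was low, at 8.09, 3.87, 1.90 and 1.42, and its oligodendrocyte level of 89.7, 106, 92.4 and 90.2 was near the microglial 111, 122, 110.2 and 96.9. The promoter of Neu1, the neuraminidase, was called in none of the 3 pairs, so no difference was detected. Exceptions were Ppt1, Gaa and Smpd1, hydrolases whose microglial level was below the neuronal one by -1.95, -1.60 and -1.27.

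The promoters of the MiT/TFE factors differed between cell types themselves. Tfeb (chr17:47736698-47737498) had 137, 136, 119 and 118 in microglia, 2.02, 5.15, 0.584 and 5.81 in neurons and 119.5, 164, 187 and 215 in oligodendrocytes, so neurons were below microglia by 5.09 and below oligodendrocytes by 5.49. Mitf had 48.01, 46.6, 45.7 and 39.6, 2.02, 7.73, 3.505 and 3.40 and 50.4, 31.3, 39.5 and 32.5 in the same order, again with neurons lowest. Tfe3 was highest in microglia, with 48.8, 59.4, 48.1 and 42.6, against 6.07, 16.8, 26.7 and 19.7 in neurons and 10.7, 1.81, 11.4 and 6.72 in oligodendrocytes. Flcn was above the 90th percentile of the shared promoters in every cell type, with 525, 463, 510.2 and 519.6, 280.1, 238, 272 and 260.4 and 508, 514, 488 and 643. Of the 17 subunits of the V-ATPase, the proton pump of the lysosome, 8 were higher and 3 lower in microglia than in neurons and 9 higher and 1 lower than in oligodendrocytes, with medians of 0.39 and 0.62, or 0.24 and 0.86 with library totals.

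Immune promoters were high in microglia. Of 15 genes of interferon response and antigen presentation, 13 were higher and 1 lower in microglia than in neurons, and 11 higher and 1 lower than in oligodendrocytes, with medians of 3.21 and 3.18. B2m, the light chain of MHC class I, had 184, 147, 174 and 153 in microglia, 14.2, 23.2, 14.6 and 16.6 in neurons and 12.6, 8.16, 6.04 and 11.04 in oligodendrocytes. Psmb9, a subunit of the immunoproteasome, had 113, 125, 97.3 and 111, 1.01, 1.29, 0.876 and 3.54 and 4.67, 0, 0.979 and 1.92. Both were highest in microglia without overlap. All 7 homeostatic microglial genes in the set were higher in microglia than in neurons, and 5 were higher than in oligodendrocytes and none lower.

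Housekeeping lists split. Of 57 genes of the respiratory chain, 6 were higher and 31 lower in microglia than in neurons, 9 higher and 33 lower in oligodendrocytes than in neurons, and 11 higher and 13 lower in microglia than in oligodendrocytes. The medians were -0.64, -0.85 and 0.17, or -0.79, -1.25 and 0.40 with library totals, where the third comparison has 18 higher and 8 lower. Ndufb4, a subunit of complex I, had 13.6, 5.83, 17.6 and 24.95 in microglia and 84.9, 67.005, 116 and 89.2 in neurons, a difference of -2.58 (log2, SE 0.28, adjusted p = 8.75e-10). Neurons were above both other cell types at 27 of the 57 genes. Of 68 ribosomal protein genes, 27 were higher and 6 lower in microglia than in neurons, with a median of only 0.31, and no pair was called for 22 of them. Of 17 glycolysis genes, 2 were higher and 7 lower in microglia than in neurons and 3 higher and 9 lower in oligodendrocytes than in neurons. Their medians were -0.27 and -0.92, and the median of microglia against oligodendrocytes was -0.04 and turned to 0.20 with library totals. Isozymes differed within this list: Eno2, the neuronal enolase, had 159.8, 147, 206 and 172 in neurons and 0, 2.91, 1.76 and 1.47 in microglia, while Hk2, a hexokinase, had 49.6, 48.4, 62.2 and 66.05 in microglia and 3.03, 5.15, 1.46 and 0 in neurons. Hsp90ab1, a cytosolic chaperone, had 74.4, 96.1, 142 and 85.9 in microglia, 194, 192, 253 and 251 in neurons and 112, 134, 173 and 273 in oligodendrocytes.

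The other lists are given by their counts. Of 19 immediate early genes, 3 were higher and 10 lower in oligodendrocytes than in neurons, with a median of -1.14, or -1.53 with library totals. Fosl2, a subunit of AP-1, had 262, 227, 209 and 270.2 in neurons, 14.01, 12.2, 5.71 and 16.6 in oligodendrocytes and 169, 192, 229 and 203 in microglia. Zfp36, which encodes the mRNA decay factor tristetraprolin, had the reverse, with 3.03, 7.73, 11.5 and 10.6 in neurons and 259, 256, 253 and 266 in oligodendrocytes. Among 34 autophagy genes, 12 were higher and 3 lower in microglia than in neurons and 14 higher and 7 lower than in oligodendrocytes. Among 28 proteasome subunits, 2 were higher and 10 lower in microglia than in neurons, and no pair was called for 10. Chaperones (27 genes) had 6 higher and 8 lower, aminoacyl-tRNA synthetases (19 genes) 7 higher and 3 lower, and lysosomal nutrient sensing (25 genes) 8 higher and 11 lower in microglia than in neurons. Over all 9029 genes of shared promoters, 2723 were higher and 2849 lower there, and no list was tested against these shares. Of 8 genes known from disease-associated microglia, 7 were higher and 1 lower in microglia than in neurons and 5 higher and 2 lower than in oligodendrocytes, with medians of 1.73 and 1.02, or 1.58 and 1.26 with library totals.

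**Figure D2:**
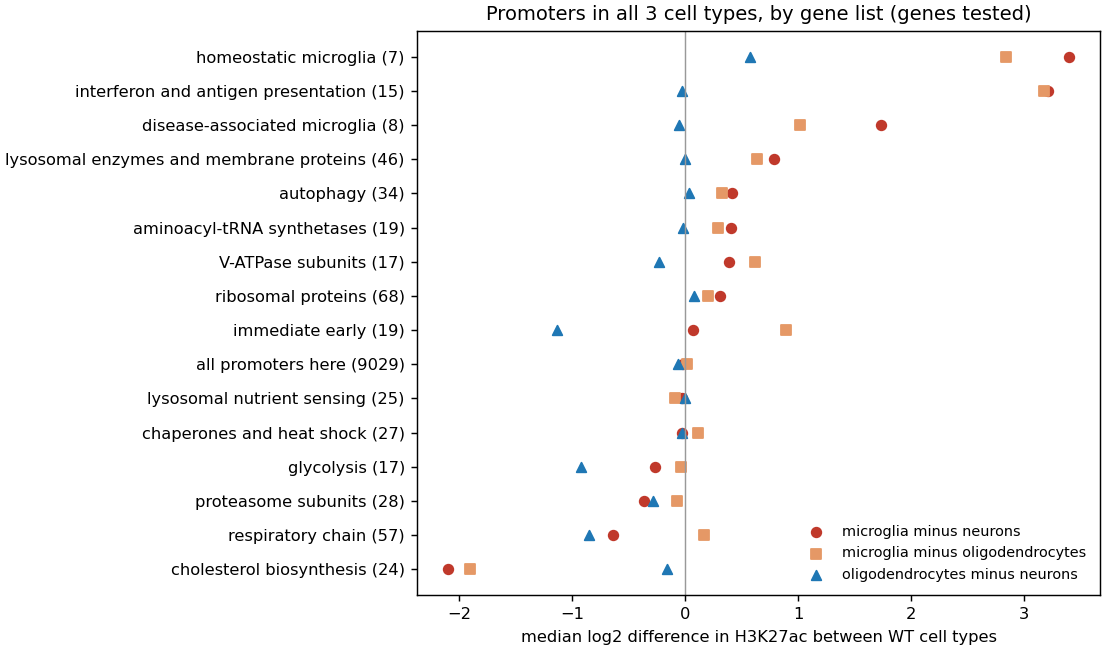
Median log2 difference in H3K27ac between WT cell types for each gene list. The horizontal axis is the median over the genes of the list that were tested, each point is 1 of the 3 comparisons of cell types, and the number of genes is given beside the name. Cholesterol synthesis lies near -2 for microglia against both other cell types, the interferon and antigen presentation list lies above 3, and all shared promoters lie near 0.

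The promoter of Sgsh, the targeted gene (chr11:119355102-119355902), carried H3K27ac in microglia and oligodendrocytes of both genotypes. In microglia it had 111 and 117 in WT and 100.1 and 112 in SgshKO at 4 months and 115 and 94.8 in WT and 112 and 145 in SgshKO at 8 months, with log2 differences of -0.10 (adjusted p = 0.815) and 0.28 (adjusted p = 0.427). In oligodendrocytes it had 74.8 and 89 in WT and 82.98 and 96.2 in SgshKO at 4 months and 78.7 and 80.01 in WT and 75.6 and 90.01 in SgshKO at 8 months, and in neurons 10.2 and 5.02 in WT and 1.68 and 2.42 in SgshKO and 2.12 and 1.57 in WT and 5.92 and 4.78 in SgshKO at these ages. The labels used here do not locate the altered part of the gene, so acetylation of its promoter is no check of the genotype labels.

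Loss of Sgsh was accompanied by changed acetylation at a small share of the shared promoters in microglia. At 4 months 416 of the 9247 tested were called (4.50%), against 12.2% of all microglial peaks, with 271 higher (2.93% against 7.87%) and 145 lower (1.57% against 4.32%) in SgshKO. At 8 months 422 were called (4.56% against 13.1%), with 209 higher (2.26% against 6.87%) and 213 lower (2.30% against 6.25%). Over the peaks that were no shared promoters, the shares were 13.4% and 14.4%. The 2 ages shared 132 promoters, 31.7% of the 4-month and 31.3% of the 8-month calls, and each of them had the same direction at both, 103 higher and 29 lower. Called promoters changed by a median of 1.11 at 4 months and 0.95 at 8 months, as absolute log2 values. Scaling to library totals shifts the median change of all shared promoters by -0.15 at 4 months and -0.22 at 8 months, and the higher and lower counts become 100 and 166 at 4 months and 80 and 434 at 8 months. Tags in peaks made up 41.2% to 51.3% of the WT and 33.2% to 47.2% of the SgshKO microglial libraries. The summed promoter signal of the 5 oligodendrocyte markers with a microglial peak also moved with genotype, from 210 to 279.5 in WT to 144 to 171 in SgshKO at 4 months and from 185 to 214 to 122 to 148 at 8 months, as did that of the 9 microglial markers, from 2874 to 2948 to 2175 to 2504 and from 2416 to 2704 to 1768 to 1853. These sums were not TMM-scaled. The TMM factors at 4 months were 1.04 and 1.23 in WT and 0.94 and 1.09 in SgshKO. At 8 months they were 1.04 and 0.99 in WT and 0.92 and 0.81 in SgshKO. The parts of these sums, of the tags in peaks and of library scaling in the result were not tested. Leaving out the first or second WT library changed the 4-month count to 210 or 658, and leaving out the first or second SgshKO library changed it to 157 or 226. At 8 months the count was 149 or 147 without the first or second WT library and 264 without the second SgshKO library.

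Among the promoters that rose in SgshKO microglia, Bhlhe40 had the smallest adjusted p at both ages. It encodes a transcriptional repressor of the basic helix-loop-helix class (chr6:108660157-108660957). At 4 months its signal was 4.00 and 4.99 in WT and 63.3 and 55.98 in SgshKO microglia, a change of 3.47 (log2, SE 0.37, adjusted p = 1.13e-08). At 8 months it was 14.1 and 10.1 in WT and 128 and 127 in SgshKO, a change of 3.31. Neurons and oligodendrocytes of WT already carried this mark there, with 133, 124, 164 and 179 and 145, 163, 226 and 239. Gas2l3, a linker of actin and microtubules, had 0.800 and 8.88 in WT and 70.6 and 47.98 in SgshKO at 4 months and 18.4 and 10.8 in WT and 72.8 and 79.6 in SgshKO at 8 months. Slc36a4, an amino acid transporter, had 33.6 and 37.7 in WT and 121 and 163 in SgshKO at 4 months, a change of 1.95 (log2, SE 0.24, adjusted p = 1.77e-07), and rose by 1.36 at 8 months. Adap1, a GTPase-activating protein for ARF6, had 48.01 and 36.6 in WT and 128 and 149 in SgshKO at 4 months, a change of 1.70 (log2, SE 0.25, adjusted p = 3.96e-06). Each of these lay above WT in both SgshKO libraries at each age, which was required of a gene at the age for which it was named. Gpr162, an orphan receptor, had 11.6 and 15.1 in WT and 89.4 and 105 in SgshKO at 8 months, a change of 2.78 (log2, SE 0.37, adjusted p = 7.83e-07). Sash1, a scaffold protein, had 12.9 and 11.5 in WT and 82.9 and 69.9 in SgshKO, a change of 2.55 (log2, SE 0.34, adjusted p = 1e-06).

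Among the promoters that fell, those with the smallest p values belonged to the genes that follow. Setbp1, which encodes a nuclear protein that binds SET, had 61.6 and 73.8 in WT and 13.98 and 9.84 in SgshKO at 4 months and 129 and 59.6 in WT and 15.9 and 17.5 in SgshKO at 8 months, changes of -2.42 (log2, SE 0.36, adjusted p = 6.05e-06) and -2.33. Adamtsl2, an extracellular matrix protein (chr2:27078894-27079694), had 40.01 and 45.5 in WT and 1.47 and 4.31 in SgshKO at 4 months, a change of -3.59 (log2, SE 0.57, adjusted p = 1.83e-05). Csmd3, a membrane protein with sushi domains, had 127 and 98.8 in WT and 26.5 and 39.4 in SgshKO, a change of -1.76 (log2, SE 0.29, adjusted p = 2.71e-05). In all 3 the genotypes did not overlap at either age, which was likewise required at the age of naming. Arhgef40, a guanine nucleotide exchange factor, had 212 and 185 in WT and 76.4 and 65.05 in SgshKO at 8 months, and Ak1, an adenylate kinase, had 219.8 and 235 in WT and 98.7 and 116 in SgshKO. They fell by 1.48 and 1.08 on the log2 scale. Sema4b, a semaphorin, had 189.6 and 179 in WT and 89.04 and 86.7 in SgshKO at 4 months and fell by 1.06, and its 8-month difference of -0.54 was not called (adjusted p = 0.0548). In WT, the promoters of Setbp1 and Csmd3 had 234, 242, 203 and 197 and 23.3, 10.3, 22.2 and 12.5 in neurons and 62.1, 25.8, 45.2 and 81.7 and 49.5, 35.8, 19.9 and 37.6 in oligodendrocytes. Each of these 12 promoters kept its call under every alternative setting run.

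**Figure D3:**
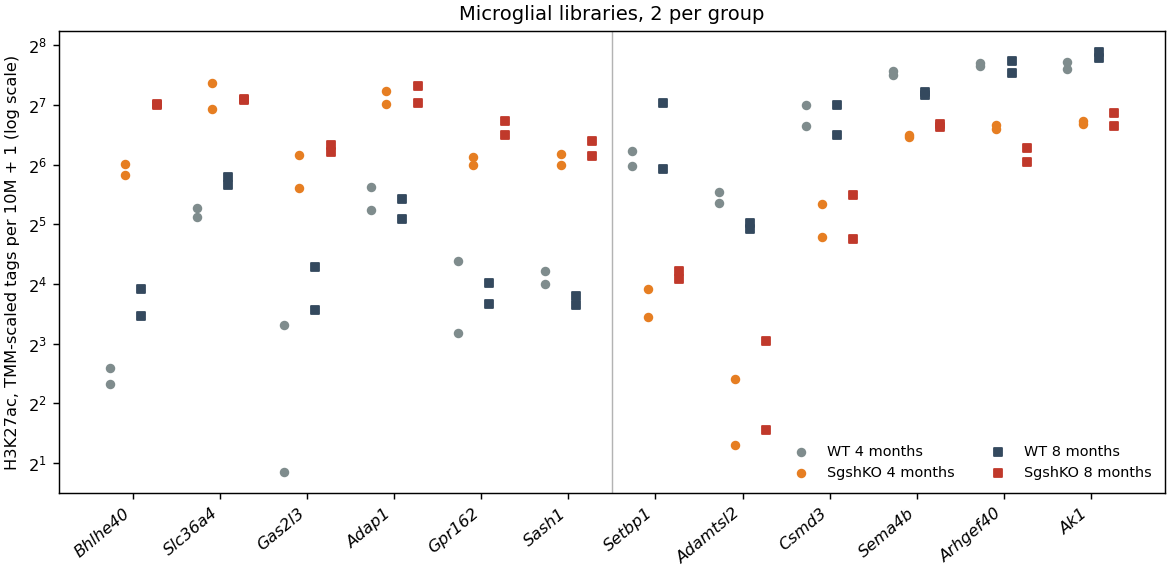
H3K27ac at 12 shared promoters in microglia by genotype and age. The vertical axis is tags per 10M + 1 on a log2 scale, scaled over the 8 microglial libraries, and each point is 1 of the 2 libraries of WT or SgshKO at 4 or 8 months. Bhlhe40 goes from 4.00 and 4.99 in WT to 63.3 and 56.0 in SgshKO at 4 months, and Setbp1, Adamtsl2 and Csmd3 lie lower in SgshKO at both ages.

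Several glycolysis promoters rose in SgshKO microglia. Of the 14 tested, 7 rose at 4 months and 6 at 8 months and none fell, with a median of 0.69 at each age, against 219 higher and 134 lower and a median of 0.02 at 4 months, and 174 higher and 178 lower and a median of -0.06 at 8 months, over the 8198 genes of tested shared promoters. Gpi1, glucose-6-phosphate isomerase (chr7:34229949-34230749), had 10.4 and 11.1 in WT and 56.7 and 37.5 in SgshKO at 4 months and 24.5 and 15.1 in WT and 61.3 and 47.6 in SgshKO at 8 months, changes of 2.00 (log2, SE 0.38, adjusted p = 0.000226) and 1.44. Gapdh had 72.02 and 62.7 in WT and 121 and 128 in SgshKO at 4 months and 86.9 and 53.1 in WT and 112 and 137 in SgshKO at 8 months, changes of 0.88 (SE 0.23) and 0.86. Both SgshKO libraries lay above both WT libraries for these genes at each age. Ldha (chr7:46845334-46846134), whose 2 E-boxes are shown above, had 45.6 and 81 in WT and 124 and 94.7 in SgshKO at 4 months and 75.3 and 43.1 in WT and 123 and 152 in SgshKO at 8 months, with adjusted p = 0.0338 and 0.000919. Pfkfb3, which makes the activator of phosphofructokinase, had 116 and 108 in WT and 197 and 199 in SgshKO at 4 months and rose by 0.82 and 0.71, and Aldoa, an aldolase, rose by 0.70 and 0.75. Hk2 and Pfkl, the liver-type phosphofructokinase, rose at 4 months by 0.92 and 0.95, and Eno1, an enolase, rose at 8 months by 0.65. With scaling to library totals the medians stayed positive, at 0.55 and 0.46, but only 1 gene rose at 4 months and 2 rose and 1 fell at 8 months. The count at 4 months was 3 without SgshKO replicate 1 and 3 without SgshKO replicate 2, and at 8 months it was 0 without WT replicate 2 and 2 without SgshKO replicate 2.

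Cholesterol promoters, the lowest in WT microglia, had a positive median in SgshKO, but few passed the test. Of 23 tested, 3 rose at 4 months and 1 at 8 months and none fell, with medians of 0.61 and 0.45, or 0.46 and 0.23 with library totals. Srebf2 (chr15:82146707-82147507) had 12.8 and 19.97 in WT and 50.04 and 48.6 in SgshKO at 4 months, a change of 1.56 (log2, SE 0.37, adjusted p = 0.00287), and 31.2 and 28.01 in WT and 60.5 and 28.2 in SgshKO at 8 months, where it was not called (adjusted p = 0.466). Sc5d, a sterol desaturase, had 2.40 and 0 in WT and 15.5 and 13.5 in SgshKO at 4 months, a change of 3.07 (log2, SE 0.74, adjusted p = 0.00357), from WT levels below the largest input median of 4.98. The 4-month count was 1 without SgshKO replicate 1, and the 8-month count was 0 without WT replicate 2.

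**Figure D4:**
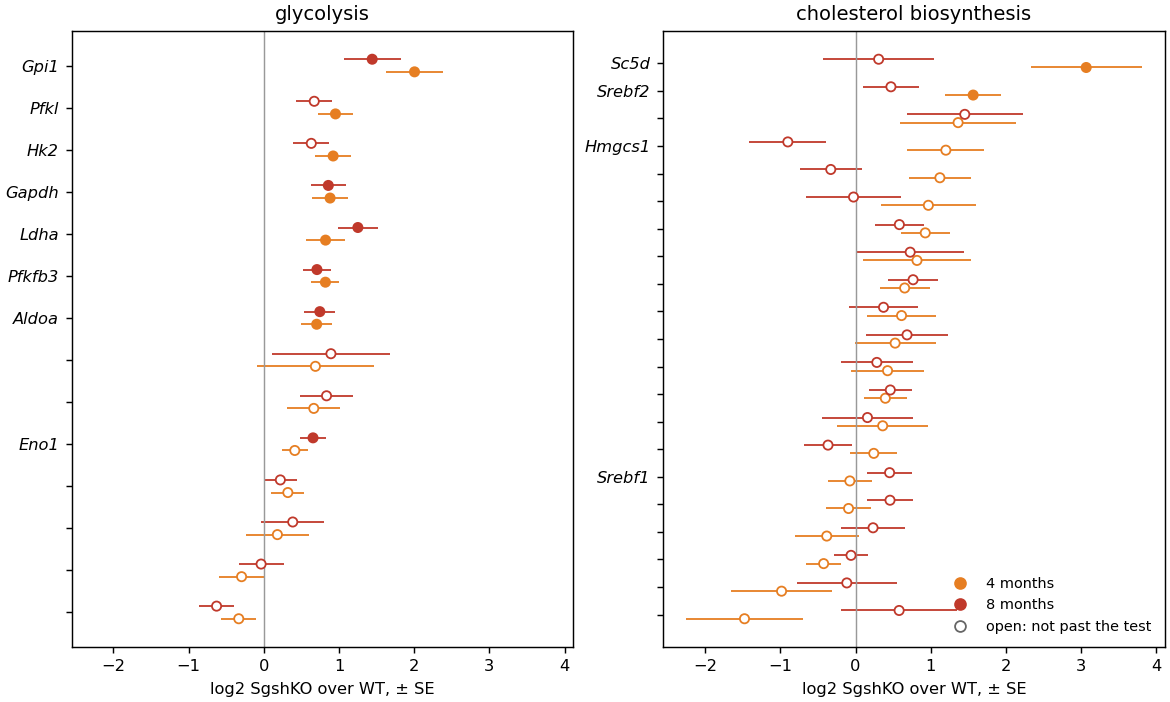
Change in H3K27ac of glycolysis and cholesterol promoters in SgshKO against WT microglia. The horizontal axis is the log2 difference with bars of 1 SE, for 4 and 8 months, and filled points had an adjusted p under 0.05. Every filled point lies to the right of 0, with Gpi1 at 2.00 and 1.44, while many cholesterol promoters have open points and wide bars. Promoters not described in the text carry no name, and not every promoter of the lists is drawn.

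A minority of the lysosomal promoters changed. Of 46 tested, 4 rose at 4 months, and 4 rose and 1 fell at 8 months, against 219 and 174 that rose of the 8198 genes. The medians were 0.24 and 0.31. With library totals 1 rose at each age and 1 fell at 8 months, and the medians were 0.09 and 0.08. Gaa (chr11:119267523-119268323), the acid alpha-glucosidase, had 15.2 and 19.4 in WT and 42.7 and 52.9 in SgshKO at 4 months and 29.4 and 14.4 in WT and 54.8 and 54.4 in SgshKO at 8 months, changes of 1.42 (log2, SE 0.36, adjusted p = 0.00651) and 1.36. Grn, progranulin, had 118 and 151 in WT and 226 and 204 in SgshKO at 4 months, a change of 0.68 with adjusted p = 0.00541, and Tpp1, a tripeptidyl peptidase whose loss causes neuronal ceroid lipofuscinosis, rose at 4 months by 1.16. At 8 months Galc, Asah1 and Ppt1, enzymes of lipid and lipoprotein degradation, rose by 0.73, 0.83 and 1.20, and Tmem192, a lysosomal membrane protein, fell by 0.72. The 4-month count of 4 was 2 without WT replicate 1, WT replicate 2 or SgshKO replicate 1 and 1 without SgshKO replicate 2. The 8-month count that rose was 0 without WT replicate 2, 1 without SgshKO replicate 1 and 2 without either other library. Ctsd, Naglu and Neu1 had 4-month log2 differences of 0.06, 0.28 and 0.41, and those of Mcoln1, Atp6v0d1 and Atp6v1h were 0.50, 0.65 and 0.98. None of these 6 was called at 4 months.

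The promoters of the Rag and folliculin pathway, which governs MiT/TFE factors at the lysosome, included several that rose. Fnip2 (chr3:79567432-79568232) had 88.02 and 79.9 in WT and 142 and 159.9 in SgshKO at 4 months and 59.4 and 61.8 in WT and 154 and 152 in SgshKO at 8 months, changes of 0.84 (log2, SE 0.21, adjusted p = 0.00438) and 1.33 (log2, SE 0.21, adjusted p = 1.4e-05). Fnip1 had 48.8 and 73.8 in WT and 117 and 94.1 in SgshKO at 4 months and 73.5 and 64.6 in WT and 128 and 115 in SgshKO at 8 months and rose by 0.80 and 0.80. Rragc had 104 and 68.8 in WT and 144 and 125 in SgshKO and 91.2 and 109.9 in WT and 146 and 165 in SgshKO at the same ages and rose by 0.66 and 0.63. Both SgshKO libraries were above both WT libraries in all of these. Mitf rose at 8 months by 1.00 (adjusted p = 0.00921), while Tfeb, Tfe3 and Flcn had 8-month differences of 0.08, -0.06 and -0.01, with adjusted p = 0.864, 0.93 and 0.965. Of the 24 promoters of lysosomal nutrient sensing tested, 3 rose at 4 months and 4 at 8 months and none fell, and with library totals 0 and 1 did. The 4-month count was 5 without WT replicate 2 and 1 without either SgshKO replicate, and the 8-month count was 2 without WT replicate 1 or SgshKO replicate 1 and 1 without WT replicate 2 or SgshKO replicate 2. Of the 17 V-ATPase subunits tested, none rose and 1 fell at 4 months, and 2 rose and 1 fell at 8 months. The subunit Atp6v0a2 fell at both ages: it had 123 and 99.9 in WT and 56.7 and 65.8 in SgshKO at 4 months and 118 and 101 in WT and 54.1 and 65.05 in SgshKO at 8 months, changes of -0.85 (adjusted p = 0.0117) and -0.87 (adjusted p = 0.00963). Atp6v1b2 and Atp6v1c1 rose at 8 months by 1.14 and 0.91, and with library totals or without WT replicate 2 no subunit rose. At 8 months 3 rose without WT replicate 1 and 1 without either SgshKO replicate. No subunit fell without WT replicate 1 or SgshKO replicate 1 of the age compared. The median at 8 months was 0.14 and turned to -0.08 with library totals, and that of lysosomal nutrient sensing was 0.13 and turned to -0.10.

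Each of the remaining lists had at most 4 calls in SgshKO microglia at either age. Of 15 interferon and antigen presentation promoters, Ifi27 rose at both ages, by 1.55 (adjusted p = 0.000502) and 1.40 (adjusted p = 0.0016), H2-D1, a class I heavy chain, rose at 4 months by 0.83, and Irf3 fell at 4 months by 0.90. Of 8 promoters of disease-associated microglia, 2 rose at 4 months (Hif1a and H2-D1) and 1 at 8 months (Ank), or 1 and 0 with library totals. The 4-month count was 1 without WT replicate 2 or SgshKO replicate 1, and the 8-month count was 0 without WT replicate 2 or SgshKO replicate 2. Hif1a, which encodes the hypoxia-inducible factor, had 107 and 94.9 in WT and 219 and 209 in SgshKO at 4 months, a change of 1.08 (log2, SE 0.18, adjusted p = 3.84e-05), and a difference of 0.45 (adjusted p = 0.0958) at 8 months. Of the 17 immediate early genes tested, Maff, a small MAF protein, rose by 2.14 and 2.18, and Fosl2 fell by 0.55 and 0.68. Of 68 ribosomal protein promoters, 4 rose at 4 months (Rpl13, Rpl30, Rpl34 and Rpl38) against 219 of the 8198 genes, and 2 fell at 8 months (Rpl7 and Rpl10), against 178. The 4-month count was 1 without WT replicate 1, 6 without WT replicate 2, 2 without SgshKO replicate 1 and 0 without SgshKO replicate 2, and the 8-month count was 0 without either WT replicate or SgshKO replicate 1. Of 7 homeostatic microglial genes, Olfml3 fell at 8 months by 0.89. Autophagy had 2 and 0 higher, proteasome subunits 1 and 0 higher, aminoacyl-tRNA synthetases 1 lower at 4 months and 1 higher at 8 months, and chaperones 1 lower at 8 months. The respiratory chain had 0 higher and 0 lower of 57 at 4 months and 0 and 1 at 8 months. At 4 months autophagy had 4 higher and proteasome subunits had 4 higher without WT replicate 2, and both had 0 without WT replicate 1 or SgshKO replicate 1. The calls of single genes in the other lists of these sentences, Maff, Fosl2 and Olfml3 included, were each lost without at least 1 library.

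In neurons no shared promoter was called between genotypes at either age by limma or by edgeR, out of 9914 tested and against 0.0% of all neuronal peaks. This is no evidence of equal levels. The depth of the neuronal libraries also differed with genotype at 4 months, and its part was not tested. In simulated neuronal data at 4 months, limma recovered 0% of true log2 changes of 1 and 32% of those of 2. At an unadjusted p under 0.05 there were 869 at 4 months and 138 at 8 months, and DESeq2 called 1 and 0. The smallest p values at 4 months belonged to Hist2h2bb, with 72.6 and 65.3 in WT and 169 and 160.3 in SgshKO (adjusted p = 0.0969), and to Secisbp2l, with 73.9 and 66.9 in WT and 12.3 and 31.5 in SgshKO (adjusted p = 0.329). Hist2h2bb is a histone gene with near-identical copies, so its tags may be shared with them. The genotypes did not overlap at either promoter, which the choice by smallest p favoured. At 8 months they were Pisd-ps3, a pseudogene, with 794 and 732 in WT and 926 and 1076 in SgshKO, and Fosb, an immediate early gene, with 195 and 314 in WT and 173 and 87.3 in SgshKO, both with an adjusted p of 1. The 4-month count was 8 without WT replicate 1, 3 without WT replicate 2 and 76 without SgshKO replicate 2.

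In oligodendrocytes 9 of 10022 shared promoters were called at 4 months (0.0898%, against 0.205% of all oligodendrocyte peaks), 3 higher (against 0.101%) and 6 lower (against 0.104%) in SgshKO, and 940 had an unadjusted p under 0.05. Simulated data of this comparison gave back 7% of true log2 changes of 1 and 77% of those of 2. Tmem50a had 12.9 and 9.89 in WT and 43.9 and 32.3 in SgshKO, a change of 1.65 (log2, SE 0.36, adjusted p = 0.0307), and Ddx3x, an X-linked RNA helicase, had 304 and 311 in WT and 179.6 and 164 in SgshKO, a change of -0.84 (log2, SE 0.16, adjusted p = 0.0115). Neither call held without SgshKO replicate 1 or 2 or with library totals. Without either of these libraries the count was 0, and it was 270 without WT replicate 1 and 78 without WT replicate 2. SgshKO replicate 2 of this age had 29.2% of its tags in peaks, against 43.2% to 58.6% in the other 7 libraries, and its part was not tested. At 8 months 0 were called (against 0.00892% of all peaks), by limma, edgeR or DESeq2, and 246 had an unadjusted p under 0.05. The smallest p values belonged to Kifc3, a kinesin, with 98.5 and 123 in WT and 168 and 186 in SgshKO (adjusted p = 0.525), and to the hyaluronidase Hyal2, with 97.8 and 75.9 in WT and 49.97 and 45.5 in SgshKO (adjusted p = 0.931).

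Whether the genotype change differed between cell types was tested in the fit of all 24 libraries, as the SgshKO minus WT difference over both ages in microglia minus that in another cell type. Against neurons 132 of 10159 shared promoters were called (1.30%, against 1.74% of all matched peaks), 91 with a higher (against 1.2%) and 41 with a lower change in microglia (against 0.547%). Against oligodendrocytes 126 were called (1.24% against 1.73%), 85 higher (against 1.2%) and 41 lower (against 0.526%). These comparisons share the microglial libraries. Bhlhe40 was called in both, with differences of 3.16 (SE 0.22) against neurons and 3.39 (SE 0.22) against oligodendrocytes. In glycolysis, Gpi1 differed by 1.60 and 2.06, with adjusted p = 0.00409 and 0.000168, and Pfkl and Gapdh differed from oligodendrocytes by 1.35 and 1.15. Sc5d and Srebf2 differed from neurons by 1.96 and 1.06. Fnip2 differed from oligodendrocytes by 1.48 (adjusted p = 0.0133), Fnip1 by 0.90 and Hif1a by 0.93. With library totals the higher and lower counts were 32 and 44 against neurons and 51 and 18 against oligodendrocytes. The count against neurons was 85 without neuronal SgshKO 8-month replicate 1, and that against oligodendrocytes was 213 without microglial WT 4-month replicate 2.

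Age was tested over both genotypes. In microglia 0 of 9247 shared promoters were called between 8 and 4 months by limma, against 0.0% of all peaks, while 597 had an unadjusted p under 0.05, and 0 for the interaction of genotype and age, where 604 did. edgeR also called 0 in both and DESeq2 0 for age, and without WT 4-month replicate 2 the counts were 27 and 21. In neurons 47 were called (0.474% against 0.204%), 6 higher (against 0.0847%) and 41 lower (against 0.119%) at 8 months, or 5 and 10 with library totals. Ran, a nuclear transport GTPase, fell by 0.86 (SE 0.14) and Zmynd11, a reader of histone H3.3, by 0.93 (SE 0.16), both with adjusted p = 0.011. Nr4a3, an immediate early nuclear receptor, rose by 0.79 and Pisd-ps3 by 0.38. Each of these 4 calls was lost without at least 1 library, and leaving out the first or second WT library changed the count to 96 or 1 at 4 months and to 11 or 1 at 8 months, while leaving out the first or second SgshKO library of 8 months left 3 or 0. In oligodendrocytes 253 were called (2.52% against 2.87%), 241 higher (against 2.44%) and 12 lower (against 0.424%) at 8 months, and 1337 and 0 with library totals, which move the median of all oligodendrocyte peaks from 0.01 to 0.41. Lzts2, a tumour suppressor candidate, rose by 1.26 (SE 0.13) and Atg2a, a lipid transfer protein of autophagosome growth, by 1.40 (SE 0.15). Smim10l1 and Nr2c1, an orphan nuclear receptor, fell by 0.89 and 0.74, and both calls were lost with library totals. Summed oligodendrocyte marker signal in these libraries was 1253 to 2299 at 4 months and 2884 to 3409 at 8 months, without TMM scaling. Precursor marker sums at 4 months were 98.7 to 153 in WT and 113 to 164 in SgshKO. At 8 months they were 219 to 239 and 284 to 299.96. The TMM factors were 0.64 to 0.99 at 4 months and 1.08 to 1.20 at 8 months. The parts of these in the result were not tested. Leaving out the first or second WT library changed the count to 586 or 475 at 4 months and to 148 or 78 at 8 months, and leaving out an SgshKO library changed it to 107 (4 months, replicate 2), 95 (8 months, replicate 1) and 118 (8 months, replicate 2).

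The factor pools were read in windows of 200 bp, in tags per 10M, and a promoter was called bound where log2((ChIP + 1)/(input + 1)), averaged over the genotypes, was at least 1. With 1 pool per factor and genotype there is no replicate error and no test. In microglia 56.0% of the shared promoters were bound by MITF (against 40.7% of all microglial peaks), 51.7% by TFEB (36.2%) and 82.2% by TFE3 (59.5%), and 4021 by all 3 (39.5% against 23.8%). In oligodendrocytes 71.3% were bound by MITF (50.0%), 84.0% by TFEB (57.5%) and 82.7% by TFE3 (58.7%), and 6623 by all 3 (65.0% against 38.6%). The microglial promoter peaks without both counterparts had 20.7% bound by all 3, and the oligodendrocyte promoter peaks outside the set 33.98%. Both cell types had 3071 promoters bound by all 3, which is 76.4% of the microglial and 46.4% of the oligodendrocyte ones. The log2 ratios of the 2 cell types had Spearman correlations over 10188 promoters of 0.23 for MITF, 0.27 for TFEB and 0.31 for TFE3. The share bound depended on the pool: from the WT pools alone it was 32.8%, 36.0% and 61.9% for MITF, TFEB and TFE3 in microglia and from the SgshKO pools 69.6%, 58.6% and 86.7%. In oligodendrocytes these were 45.1%, 78.2% and 69.9%, and 81.4%, 80.7% and 82.3%. The inputs differed between genotypes too, with a median of 5.51 tags per 10M in WT and 0.5 in SgshKO at the promoters in microglia and 3.06 and 0.96 in oligodendrocytes, and the part of this was not tested.

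**Figure D5:**
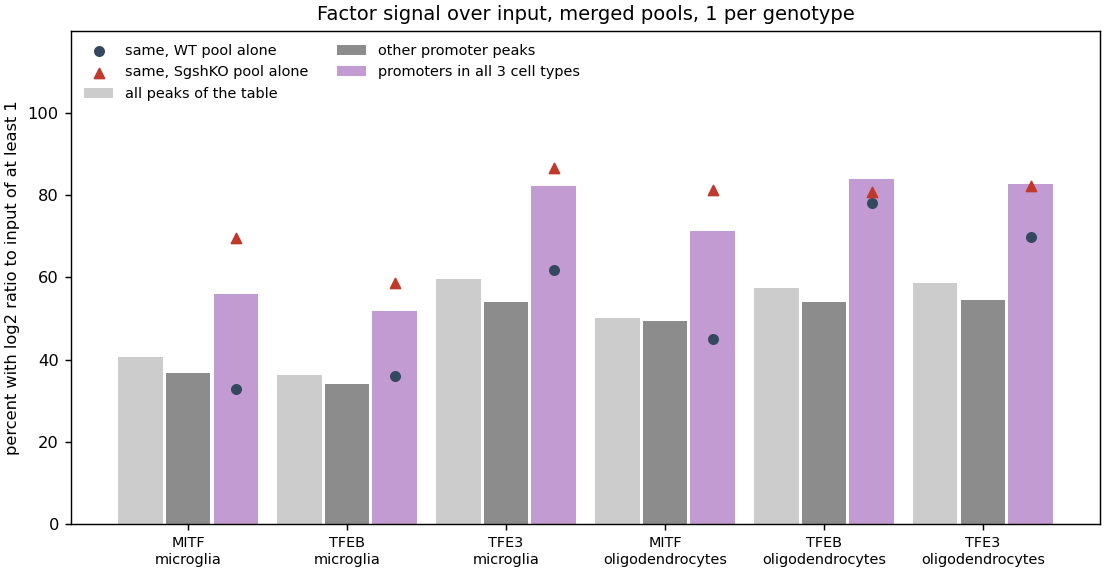
Share of promoters at which MITF, TFEB and TFE3 were bound, for both cell types profiled. The vertical axis is the percent with a log2 ratio to input of at least 1, bars are all peaks, promoter peaks outside the set and the shared promoters, and points are the shared promoters from the WT pool or the SgshKO pool alone. The shared promoters have the highest bar for each factor and cell type, and the SgshKO point lies above the WT point in each.

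The strongest microglial binding by the mean ratio of the 3 factors was at Nampt, the enzyme of NAD salvage (chr12:32819817-32820617). Its WT pools had 104 for MITF, 123 for TFEB and 401 for TFE3 against an input of 9.59, and its SgshKO pools 455 for MITF, 165 for TFEB and 833 for TFE3 against 0. For TFE3 in WT the exact Poisson interval at 95% was 380.3 to 422, which covers counting error only. Ftl1, the ferritin light chain, and Slf2, a factor of DNA repair, were among the next, with mean log2 ratios of 6.20 and 6.07. In oligodendrocytes Gga3, an adaptor of lysosomal sorting (chr11:115603463-115604263), led with WT pools of 43.4 for MITF, 303 for TFEB and 229 for TFE3 against 1.91. Wdtc1, Amd1, an enzyme of polyamine synthesis, and again Nampt followed with 7.17, 7.12 and 7.06.

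Among promoters with a printed E-box, Naglu had WT microglial pools of 313 for MITF, 194 for TFEB and 636 for TFE3 against an input of 9.39, and SgshKO pools of 419 for MITF, 308 for TFEB and 1051 for TFE3 against 11.2. Rragc had 99.7 for MITF, 50.2 for TFEB and 168 for TFE3 in WT against 13.9, and 279 for MITF, 105 for TFEB and 548 for TFE3 in SgshKO against 0. Both stood far above input in every pool, as did Ctsd and Mcoln1. At the other printed genes some WT pools were near or below input. Sgsh had 2.56 for MITF, 13.1 for TFEB and 19.1 for TFE3 in WT against 8.57, and 44.8 for MITF, 21.6 for TFEB and 65.4 for TFE3 in SgshKO against 3.97, and by the mean over genotypes it was bound by TFEB and TFE3 and not by MITF. Ldha had 9.13 for MITF, 4.45 for TFEB and 18.5 for TFE3 in WT against 11.8, and 37.7 for MITF, 14.5 for TFEB and 58.99 for TFE3 in SgshKO against 0. Gaa had 4.38 for MITF, 10.3 for TFEB and 66.4 for TFE3 in WT against 7.55, and 47.5 for MITF, 37.2 for TFEB and 156 for TFE3 in SgshKO against 0. Fnip1 had 9.86 for MITF, 41.3 for TFEB and 99.7 for TFE3 in WT against 11.8, and 65.1 for MITF, 79.3 for TFEB and 176 for TFE3 in SgshKO against 7.43. By the mean over genotypes the printed genes other than Sgsh were bound by all 3 factors in microglia. In oligodendrocytes Ldha was bound by 0 factors, Gaa by TFEB and TFE3, and the other printed genes, Sgsh included, by all 3. Fnip2 had 116 for MITF, 70.3 for TFEB and 262 for TFE3 in WT against 7.55, and 411 for MITF, 181 for TFEB and 529 for TFE3 in SgshKO against 2.73. Hmgcs1 had WT pools below input, with 1.46 for MITF, 1.41 for TFEB and 3.92 for TFE3 against 5.51, and SgshKO pools of 18.5 for MITF, 0 for TFEB and 38.5 for TFE3 against 0, and by the mean over genotypes it was bound by MITF and TFE3. At Bhlhe40 the WT microglial pools had 0.370 for MITF, 0.230 for TFEB and 3.92 for TFE3 and the SgshKO pools 33.03 for MITF, 24.2 for TFEB and 30.98 for TFE3, against inputs of 0.610 and 2.97.

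Promoters with the E-box CACGTG were bound by all 3 factors more often in microglia, 54.5% of 948 against 38.0% of the 7475 without it, and in oligodendrocytes by a smaller margin, 67.7% against 64.9%. With the start required inside the window these were 57.3% against 39.3% and 70.3% against 67.1%. The extended form TCACGTGA gave 62.6% against 39.3% in microglia and 67.7% against 65.2% in oligodendrocytes. The CLEAR element gave 56.2% against 39.7% in microglia and the reverse, 61.6% against 65.3%, in oligodendrocytes. The GC box gave 41.6% against 34.7% in microglia and 67.1% against 60.0% in oligodendrocytes. For the NRF1 palindrome these were 47.5% against 39.6% and 73.5% against 65.0%. In oligodendrocytes both of these motifs had a larger margin than the E-box. Of the 100 promoters with the largest mean ratio, 31% had the E-box in microglia and 12% in oligodendrocytes. Bound promoters also had more H3K27ac: the median WT microglial signal was 12.9, 23.7, 33.1 and 47.6 tags per 10M with 0, 1, 2 and 3 factors bound, and the oligodendrocyte one 17.03, 20.2, 23.8 and 38.1. In microglia, 4.08% of promoters bound by all 3 factors rose in SgshKO at 4 months and 2.53%, 1.66% and 2.21% of those bound by 0, 1 and 2, against 7.87% of all microglial peaks. At 8 months these were 2.89% and 1.85%, 1.34% and 2.12%, against 6.87%. Because the filter on few tags removed more promoters with low signal, and the SgshKO pools entered the call of binding, these shares describe the sets and are no test. Among WT patterns, the E-box was in 13.4% of promoters highest in microglia, 10.6% of those highest in neurons and 9.66% of those highest in oligodendrocytes. Over all matched promoters it was in 11.3%. The ETS motif CCGGAAGT was in 12.5% of promoters with no difference called between cell types. It was in 10.8% of those highest in microglia, 7.20% in oligodendrocytes and 5.57% in neurons, against 9.56% of all matched promoters.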

How the data were processed

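The deposited tables hold signal: tags per 10M tags of a library in windows on open-chromatin peaks, 800 bp wide for H3K27ac and 200 bp for the factors, per the file headers. Reads were mapped with Bowtie2 to mm10, and HOMER and DESeq2 were also used, per the submitters' processing notes; their roles and versions are not given in the sources used here. Low values were multiples of a step of 1 or 0.5 tags, except in the microglial H3K27ac inputs, and tag counts of the ChIP libraries were recovered for the count tests. The headers of those inputs repeat the totals of the matching ChIP libraries, so their values are given as deposited. Peaks with few tags were removed with filterByExpr, and TMM scaling (edgeR 4.0.16) and limma 3.58.1 (R 4.3.3) were applied to log2(tags per 10M + 1), two-sided, with Benjamini-Hochberg adjustment over all tested peaks of a table and calls under 0.05. Fold changes are on that scale and understate low promoters. edgeR's quasi-likelihood test and DESeq2 1.42.0 on recovered tags were alternatives. The limma test was also run on simulated data. For genotype at 4 months it recovered 23% of true log2 changes of 1 and 91% of those of 2 in microglia. In neurons these were 0% and 32%, and in oligodendrocytes 7% and 77%, so many changes of this size could be missed. Each simulation changed 100 peaks by each size, only at peaks above a minimum mean signal and with the same dispersion for all peaks. In the real data 12.2% of microglial peaks were called at 4 months, so the simulated shares need not hold there or at low promoters.

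The shared promoters and gene lists were chosen with earlier results of these data known. In the lists and the fixed list, a gene with several shared promoters is represented by the one nearest its start. Genes named for a p value, a difference or a range are given by the window that met the rule. Genes named were those of a fixed list, the smallest p values of each genotype and age comparison, the largest differences between cell types at 50 or more tags per 10M, the smallest ranges and the largest factor ratios, and genes of the lists. For microglial genotype and for cell types, only called promoters whose libraries did not overlap between the compared groups could be named. Their lack of overlap was therefore set by the choice. Lists of the Rag pathway, glycolysis and others give counts and medians, with no list test. Genes of lists beyond these rules were picked after their values were seen. Inputs entered no fit. A few genes that these rules name are not reported here.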

Additional observations from a re-analysis of the deposited data

Results flagged for a closer look

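The SgshKO minus WT change over both ages differed between microglia and neurons at 132 shared promoters and between microglia and oligodendrocytes at 126, by limma's test of the difference itself with Benjamini-Hochberg adjustment. Bhlhe40, Gpi1 and Fnip2 were among them, each with a higher change in microglia. No group held enough libraries to look for a single library apart from the others.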

How the results depend on the processing

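The H3K27ac counts were recomputed with library totals, a pseudocount of 5, no filter, edgeR, a replicate block, a centre distance of 50 bp (5790 promoters) and without each library, and those of genotype and age within a cell type also with DESeq2. None of the named genes recomputed this way changed direction, but with library totals the microglial balance of higher and lower calls turned at 4 months and several list medians changed sign, those given above among them. The values of named genes under these settings were pooled with the recomputed shares bound with and without an E-box. Of these, 553 stayed the same, which for genes means the same call and direction. Among the gene values, 32 lost their call and 5 gained it. The microglial genotype calls at 4 months numbered 266 with library totals, 256 with DESeq2 and 229 at 50 bp, and those at 8 months 263 with DESeq2 and 233 at 50 bp. Neuronal 4-month calls were 1 with a pseudocount of 5 and 1 with DESeq2. Neuronal age calls were 15 with library totals, 86 with a pseudocount of 5, 8 with no filter, 310 with DESeq2 and 22 at 50 bp. Oligodendrocyte 4-month calls were 3 with library totals, 1 with edgeR and 5 with DESeq2, and age calls 1337 with library totals and 134 at 50 bp. At 50 bp, microglia differed from neurons at 3506 and from oligodendrocytes at 3212, and oligodendrocytes from neurons at 3376. The genotype difference between microglia and neurons was called at 76 with library totals and 78 at 50 bp, and that between microglia and oligodendrocytes at 69 and 67. Promoters bound by MITF in microglia numbered 3412 at a log2 ratio of 2, 3343 from WT pools and 3176 at 50 bp, by TFEB 2797 at 2 and 2934 at 50 bp, by TFE3 4792 at 50 bp, and by all 3 factors 1956 at 2, 2507 with a pseudocount of 5, 1739 from WT pools and 2202 at 50 bp. In oligodendrocytes these were 4564, 4594 and 4048 for MITF, 4886 at 50 bp for TFEB, 4786 at 50 bp for TFE3 and 3957, 3853 and 3689 for all 3. The promoters at 50 bp are fewer, and the cause of the other moves was not tested.

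Leaving out each library gave 157 to 658 calls in microglia at 4 months, 147 to 345 at 8 months, 0 to 27 for age and 0 to 21 for genotype by age. In neurons it gave 0 to 76 at 4 months, 0 to 0 at 8 months and 0 to 96 for age, and in oligodendrocytes 0 to 270, 0 to 0 and 78 to 586. WT microglia against neurons gave 5747 to 6014, against oligodendrocytes 5250 to 5606, and oligodendrocytes against neurons 5424 to 5729. The genotype difference gave 85 to 191 against neurons and 84 to 213 against oligodendrocytes. A group left with 1 library was assumed to vary like the others. With the replicate number as a block the counts were 424 and 429 in microglia, 10 in oligodendrocytes at 4 months, 40 and 248 for age in neurons and oligodendrocytes, 6302, 5777 and 5982 between WT cell types and 131 and 126 for the genotype differences. Deviations of same-numbered libraries had correlations of -0.05 to 0.03, so the numbers do not pair the libraries. Promoters near the level of the inputs have few tags, so their changes were hard to detect at this depth. For the promoter sequences, the distance of 1000 bp was chosen after seeing the data.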
